A study of Mus musculus with 30 samples.

Results

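Liver RNA of adult female mice was compared between offspring of dams that drank 2,4-BPS and offspring of dams that drank estradiol (E2). The comparison took the 3 female 2,4-BPS libraries and the 3 female E2 libraries by their labels, which are 6 of the 30 libraries of the series. 2,4-BPS is an isomer of bisphenol S, a diphenyl sulfone used in place of bisphenol A, with the hydroxyl group of 1 ring at another position. E2 is the main endogenous oestrogen, a steroid. The mice were of the outbred ICR stock, and the labels name no allele. Dams, 8 per group, received 10 ng/mL of either compound with 0.001% ethanol in drinking water, adjusted to keep a daily dose of 5 µg/kg of body weight. Exposure ran from the start of pregnancy until the pups were weaned, about 40 days, so the 2 groups are matched for dose, vehicle and time. Livers were taken at 10 weeks of age, 3 per group and sex, from randomly chosen litters of different dams. Female controls, whose dams drank the ethanol alone, are given beside the 2 exposed groups as a reference level (n = 3). They enter the tests only through the spread, the gene filter and the scaling that all 15 female libraries share.

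The liver turns over its fuel by the clock and by meals. Core clock activators of the Bmal1 type drive genes of the Per, Cry and Dbp families, whose products switch the activators off again. After feeding, insulin and SREBP-1c raise the enzymes of fatty acid synthesis, and in fasting the receptor PPAR alpha raises fatty acid oxidation. Hepatocytes also make the acute phase proteins, cytochrome P450 enzymes and complement, while Kupffer cells, the resident macrophages of the organ, present antigen.

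The 6 libraries held 35970550 to 37633865 counts. Among genes with a mean of at least 1000 counts, the median coefficient of variation between libraries was 4.67% in the 2,4-BPS group and 6.18% in the E2 group, against 2.1% from counting alone. Among the 15 female libraries, E2 library 2 lay farthest from its own group, with an SD of log2 differences of 0.217 against 0.113 to 0.18 in the others. In that library long genes were low against short genes by 0.262 on the log2 scale, and the other 14 lay between −0.143 and 0.178. The median difference between 2,4-BPS and E2 was −0.0437 in the fifth of genes with the shortest transcripts and 0.0514 in the fifth with the longest, and 0.00112 and −0.0253 without that library. Counts of genes with this library left out are given wherever they change a statement. The summed level of 18 hepatocyte markers was 181000 to 208000 CPM (counts scaled to the total of each library) in the 6 libraries, and the summed level of 4 Y-linked genes was at most 0.452 CPM.

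Of 13874 genes tested across the 15 female libraries, 4141 differed between 2,4-BPS and E2 offspring, which is 29.8% (edgeR's quasi-likelihood test, adjusted p under 0.05). Of these, 2239 genes (16.1%) were higher under 2,4-BPS and 1902 (13.7%) were higher under E2. In 38.8% of all genes the 3 libraries of a group did not overlap with those of the other. The median difference over all genes was 0.007 on the log2 scale. Most differences were small. A difference of 2-fold or more was reached by 448 genes higher and 198 lower under 2,4-BPS, and one of 8-fold or more by 43 and 14. In a test against a minimum of 2-fold, 136 genes were higher and 61 lower. Below, log2 fold changes are 2,4-BPS minus E2 with the standard error of the fit after ±, so that negative values mean a higher level under E2. Levels are normalised CPM, given library by library (n = 3 per group). A gene is called higher or lower only where its adjusted p was under 0.05.

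**Figure D1:**
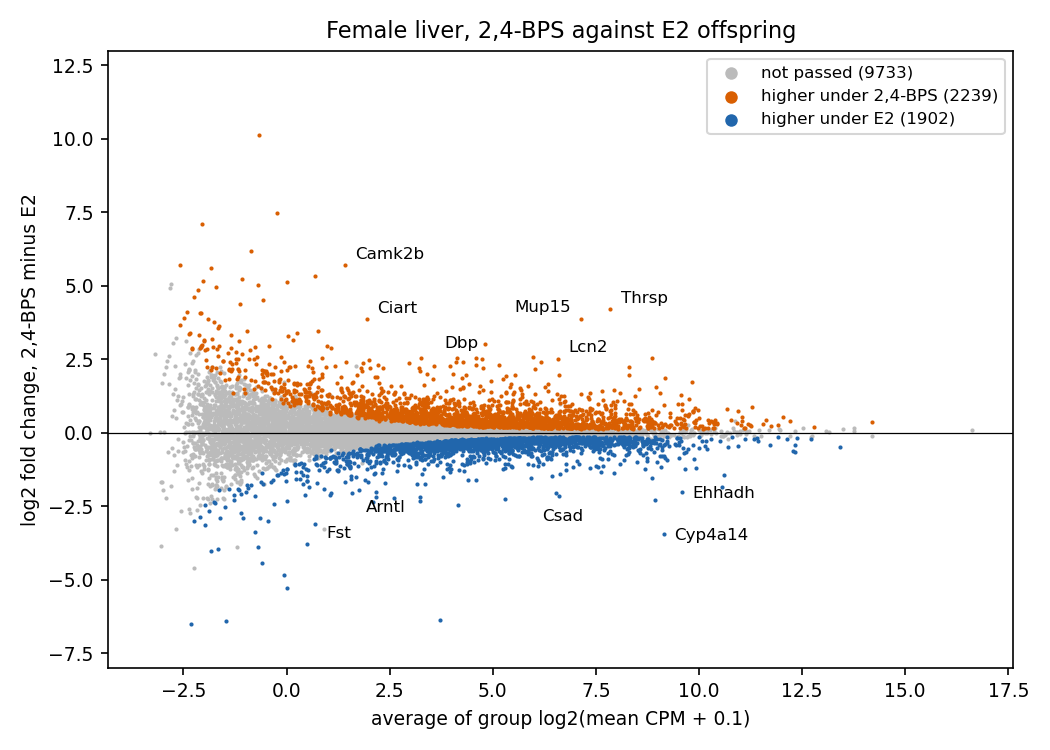
Mean level (average of the 2 groups' log2 of mean CPM + 0.1, x axis) against the log2 fold change of 2,4-BPS minus E2 offspring (y axis) for 13874 genes of female liver. Grey points did not pass the test, orange points (2239) were higher under 2,4-BPS, blue points (1902) were higher under E2, and 11 genes described in the text are labelled.

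Genes of the circadian clock separated the 2 groups. Of 25 clock genes tested, 16 were higher and 5 lower under 2,4-BPS (median log2 fold change 0.765). All 14 genes of the output and repressor arm differed, 13 higher and 1 lower, with a median of 1.58. The mice were kept on a fixed cycle of light and dark, and the sources used here give no hour of liver collection. Of the 21 genes that differed, control means were nearer to 2,4-BPS in 18 and nearer to E2 in 3.

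Dbp, an output transcription factor with a steep daily rhythm, had 60.8, 63.5 and 65.8 CPM in the 2,4-BPS libraries and 11.1, 12.1 and 9.95 in the E2 libraries. The groups did not overlap, and the log2 fold change was 2.52 ± 0.08 (adjusted p = 7.51e-25). Control livers lay above both groups, at 107, 107 and 109 CPM. Ciart, a repressor that follows the clock closely, had 13.3, 14.8 and 14 CPM against 0.749, 0.863 and 1.26, and controls at 11.2, 11.9 and 11.1 sat with the 2,4-BPS livers (3.87 ± 0.16). Usp2, a deubiquitinase under clock control, had 40.3, 37.9 and 40.6 CPM against 8.02, 7.57 and 6.84 (2.4 ± 0.09). Per2, a core repressor, had 25, 25.7 and 27 CPM against 6.66, 4.37 and 4.86 (2.29 ± 0.12). Wee1, a cell cycle kinase that the clock drives, stood at 19.7, 15.6 and 17 against 3.74, 3.11 and 3.27 CPM (2.37 ± 0.12). In all 5 genes every E2 library lay below every 2,4-BPS and every control library.

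Of the 11 activators and partners 3 were higher and 4 lower under 2,4-BPS. Arntl, which encodes Bmal1, had 3.85, 4.43 and 4.86 CPM under 2,4-BPS and 20.4, 19.9 and 19.7 under E2, with controls at 3.26, 2.97 and 2.62. The E2 livers stood apart from both other groups, and the log2 fold change was −2.19 ± 0.13. Npas2, a partner of Bmal1, was scarce, at 0.436, 0.0299 and 0.139 against 1.53, 1.9 and 1.57 CPM (−3.0 ± 0.54). Clock differed less, with overlapping libraries (32.5, 29.9 and 30.3 against 45.8, 29.5 and 46.9 CPM, −0.40 ± 0.11). Nr1d1, which encodes the repressor Rev-erb alpha, was only slightly higher under 2,4-BPS, at 38.4, 36.4 and 33.6 against 29.3, 31.6 and 29.4 CPM (0.26 ± 0.08), and both groups were below the controls at 61.7, 58.8 and 59. Noct was the output gene that was lower under 2,4-BPS (−0.26 ± 0.08). Leaving out 1 library ended 3 of these calls by edgeR's adjusted p, for Nr1d1 (0.0546) and Noct (0.111) without 2,4-BPS library 1 and for Clock (0.0564) without E2 library 3. With only the 6 libraries in the fit, Clock (0.088) and Noct (0.0556) did not pass either. Without 2,4-BPS library 1 the log2 fold change of Npas2 was −4.22.

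**Figure D2:**
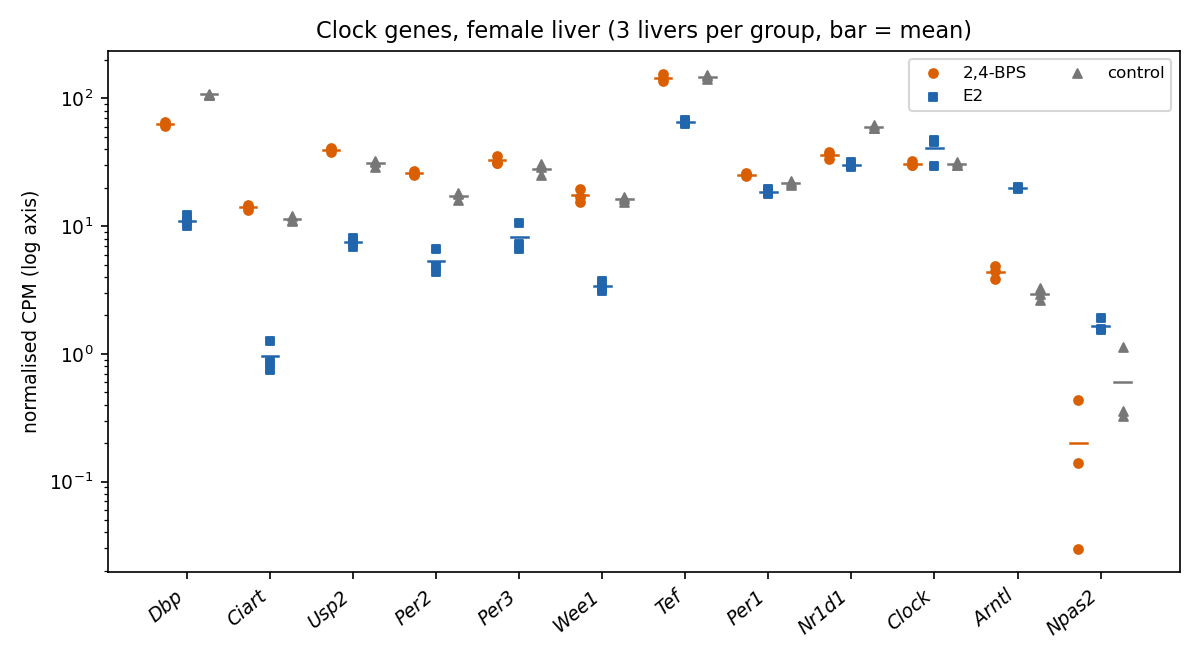
Normalised CPM (log axis) of 12 clock genes in single female livers, with orange circles for 2,4-BPS, blue squares for E2 and grey triangles for control (3 livers each, bars at the group mean). The E2 livers lie lowest for Dbp, Ciart, Usp2, Per2 and Wee1 and highest for Arntl.

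The E-box CACGTG is the element that Bmal1 and its partners bind, and the D-box TTATGTAA is bound by Dbp and its relatives Tef and Hlf. Windows of 250 bases before the gene start were searched on both strands. The E-box occurred in 6 of 27 windows (22.2%) of 19 clock genes and in 6.02% of all 32851 windows. It lay before Ciart, Per1, Tef, Cry1 and Bhlhe41, all of which were higher under 2,4-BPS. So were 16 of all 25 clock genes, and a link of the E-box to the direction was not tested. The D-box occurred in 1 of these 27 windows (3.7%), that of Per3, and in 0.819% of all windows. A match is a string of letters and not a shown binding site. Per1 and Per3 were named after their windows were seen. Per1 had 25.4, 25.9 and 24.5 CPM under 2,4-BPS and 19.5, 18 and 18.4 under E2 (0.44 ± 0.08), Per3 had 31.4, 35.5 and 31.3 and 10.7, 6.65 and 7.2 (2.00 ± 0.12), and Tef had 138, 154 and 145 and 67.9, 62.9 and 65.1 (1.16 ± 0.06). The 4 windows below, printed because they show where the letters lie in genes that were higher together, are RefSeq reference sequence on GRCm38.p6, not that of these outbred mice. They read 5′ to 3′ along the gene, with E-boxes or D-boxes in capitals.
Ciart, chr3:95882229-95882478, minus strand, E-boxes starting 116, 58 and 44 bases before the gene start: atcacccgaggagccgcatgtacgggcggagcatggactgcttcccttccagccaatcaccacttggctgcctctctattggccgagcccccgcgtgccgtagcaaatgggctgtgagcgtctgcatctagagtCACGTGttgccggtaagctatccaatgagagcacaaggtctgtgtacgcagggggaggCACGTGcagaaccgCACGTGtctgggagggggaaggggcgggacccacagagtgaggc
Per1, chr11:69098699-69098948, plus strand, E-box starting 166 bases before the gene start: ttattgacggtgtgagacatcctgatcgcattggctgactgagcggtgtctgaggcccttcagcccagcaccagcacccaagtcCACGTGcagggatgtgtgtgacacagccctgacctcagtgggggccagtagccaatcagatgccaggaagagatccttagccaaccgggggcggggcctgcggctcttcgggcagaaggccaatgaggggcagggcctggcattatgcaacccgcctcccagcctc
Tef, chr15:81811164-81811413, plus strand, E-box starting 138 bases before the gene start: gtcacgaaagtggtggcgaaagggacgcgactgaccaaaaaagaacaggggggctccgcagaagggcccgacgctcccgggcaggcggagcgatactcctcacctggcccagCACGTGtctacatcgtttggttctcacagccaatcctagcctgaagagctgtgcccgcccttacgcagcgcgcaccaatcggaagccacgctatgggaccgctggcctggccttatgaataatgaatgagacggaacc
Per3, chr4:151044666-151044915, minus strand, D-boxes starting 205 and 158 bases before the gene start: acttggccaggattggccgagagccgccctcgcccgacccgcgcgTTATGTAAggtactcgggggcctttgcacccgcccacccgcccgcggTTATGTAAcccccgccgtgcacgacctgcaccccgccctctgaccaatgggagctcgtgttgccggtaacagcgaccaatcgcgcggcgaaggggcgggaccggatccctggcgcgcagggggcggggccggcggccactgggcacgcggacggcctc

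Genes of fatty acid and triglyceride synthesis were mostly higher in 2,4-BPS than in E2 livers. Of 32 genes tested, 23 were higher and 5 lower under 2,4-BPS, with a median log2 fold change of 0.66. Thrsp, the lipogenic gene Spot 14, had 902, 1028 and 1048 CPM under 2,4-BPS and 53.4, 56.3 and 50.8 under E2. The 2 groups were far apart (4.21 ± 0.06, adjusted p = 7.16e-34), with controls at 685, 686 and 687 CPM on the 2,4-BPS side. Srebf1, the gene of SREBP-1, had 145, 157 and 146 CPM against 58.7, 61.8 and 60.3 (1.31 ± 0.06).

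The enzymes Acacb, Fasn, Pklr and Scd1 had smaller fold changes than Thrsp. Acacb, an acetyl-CoA carboxylase, had 155, 164 and 148 CPM against 67.3, 59.2 and 67.6 (1.26 ± 0.06). Fasn, the fatty acid synthase, had 253, 261 and 242 CPM against 168, 144 and 165 (0.66 ± 0.06), and Pklr, the liver pyruvate kinase, 209.9, 222 and 220.5 against 122, 121 and 123 (0.83 ± 0.05). Scd1, the stearoyl-CoA desaturase, had 1311, 1327 and 1289 CPM against 753, 773 and 769 (0.77 ± 0.06). Controls exceeded both groups for Scd1, at 2265, 2237 and 2254 CPM. Pnpla3, a lipid droplet acylhydrolase, had 5.13, 4.16 and 5.8 CPM against 0.749, 0.374 and 0.824 (2.94 ± 0.24). The 5 genes that were lower were Elovl5 (−0.78 ± 0.05) and Elovl2 (−0.66 ± 0.06), which lengthen polyunsaturated fatty acids, Agpat2 (−0.35 ± 0.05), Me1 (−0.27 ± 0.06) and Dgat1 (−0.26 ± 0.10). Dgat1 did not pass the test without 2,4-BPS library 2 or 3 or without E2 library 2 or 3 (edgeR's adjusted p from 0.0556 to 0.137), nor with only the 6 libraries in the fit (0.0612). Of the 28 genes that differed, control means were nearer to 2,4-BPS in 20 and nearer to E2 in 8.

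Genes of fatty acid oxidation mostly showed the opposite sign. Of 46 genes of oxidation and PPAR alpha targets, 31 were lower and 8 higher under 2,4-BPS (median −0.373). Of 14 mitochondrial oxidation genes 12 were lower and 0 higher, and all 3 ketogenesis genes were lower. Cyp4a14, a fatty acid omega-hydroxylase, had 172, 184 and 163 CPM under 2,4-BPS and 1804, 1949 and 1843 under E2 (−3.43 ± 0.06, adjusted p = 1.67e-31). Controls, at 236, 233 and 234 CPM, lay near the 2,4-BPS livers, and offspring of BPS dams were also high, at a mean of 1023 CPM. Cyp4a10, its neighbour in the family, had 809.7, 853 and 746 CPM against 2757, 2898 and 2903, with controls at 947, 844 and 963 (−1.83 ± 0.08).

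For Ehhadh, the bifunctional enzyme of peroxisomal beta-oxidation, the 2,4-BPS livers lay below both E2 and control livers. It had 387, 383 and 385 CPM under 2,4-BPS, 1463, 1609 and 1585 under E2 and 1110, 1107 and 1093 in controls (−2.01 ± 0.05). Acot1, an acyl-CoA thioesterase, had 54.2, 48.5 and 54 CPM against 135, 156 and 142 (−1.47 ± 0.07). Eci1, an enoyl-CoA isomerase, had 114, 125 and 128 against 249.8, 283 and 267 (−1.12 ± 0.06), and Acadm, the medium-chain dehydrogenase, 436, 429 and 442 against 796, 847 and 831 (−0.92 ± 0.05). All of these separated without overlap. The 8 genes that were higher were Ppara itself, at 380.4, 386 and 355 against 265, 201 and 259.5 CPM (0.63 ± 0.07), and Acot3, Acot4, Cyp4a31, Cyp4a32, Pex11a, Cd36 and Decr2, with log2 fold changes from 0.18 to 0.72. Decr2 did not pass without 2,4-BPS library 2 (edgeR's adjusted p = 0.0546) or E2 library 1 (0.0506). Fgf21, a hormone gene of the fasted liver, had 2.48, 1.41 and 2.58 CPM under 2,4-BPS against 9.88, 8.98 and 7.58 (−2.02 ± 0.20).

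**Figure D3:**
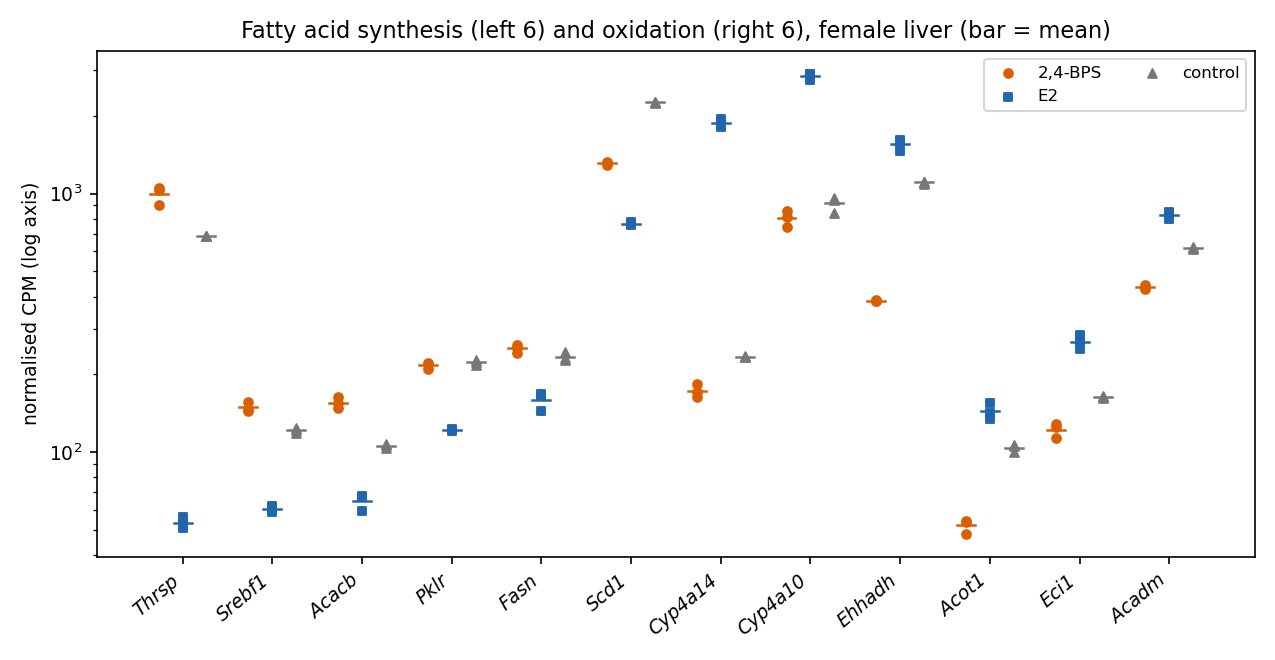
Normalised CPM (log axis) of 6 genes of fatty acid synthesis and 6 of fatty acid oxidation in single female livers (orange circles 2,4-BPS, blue squares E2, grey triangles control, 3 livers each, bars at the group mean). Synthesis genes lie lowest in the E2 livers, and oxidation genes lie highest there.

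Genes that insulin and fasting set differed in the same livers, whose feeding state at collection the sources used here do not give. Of 30 genes of glucose metabolism and insulin signalling, 13 were higher and 13 lower (median −0.0743). Of 10 glycolysis and uptake genes 7 were higher and 3 lower, and of 7 gluconeogenesis genes 1 was higher and 4 were lower. Igfbp1, an insulin-repressed binding protein of insulin-like growth factors, had 42.7, 46.2 and 47.2 CPM against 187, 199.9 and 183 (−2.07 ± 0.06), with controls between at 82.9, 78.6 and 76.3. Igfbp2 had 273, 279.8 and 258 CPM against 722, 884 and 765 (−1.55 ± 0.06). G6pc, the glucose-6-phosphatase that ends gluconeogenesis, had 189.7, 191 and 179 CPM against 397, 396 and 391 (−1.08 ± 0.06), and Pck1 differed less (−0.28 ± 0.05). Pfkfb1, which sets glycolytic flux, had 44.9, 49 and 47.3 against 20.4, 21.7 and 20.9 CPM (1.16 ± 0.07), and Pdk4, which spares glucose, 14.9, 15.1 and 13.8 against 30.2, 27.1 and 30.3 (−1.0 ± 0.11). The insulin receptor substrates Irs2 (−0.48 ± 0.09) and Irs1 (−0.34 ± 0.09) were lower under 2,4-BPS.

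Genes of methionine metabolism were mostly lower under 2,4-BPS. Of the 6 tested 5 were lower and 0 higher, with a median of −0.575. Cth, which makes cysteine, had 419.9, 431 and 432 CPM against 773, 808 and 731 (−0.85 ± 0.05), and controls at 429, 437 and 433 matched the 2,4-BPS level. Bhmt, the betaine methyltransferase, had 4099.7, 4221 and 4062 CPM against 6244, 6798 and 6461 (−0.66 ± 0.05). Among other amino acid genes, Oat, ornithine aminotransferase, had 355, 383 and 359.8 CPM against 797, 841 and 799 (−1.15 ± 0.05). Prodh, the proline dehydrogenase, was higher under 2,4-BPS, at 252, 276 and 259.6 against 128, 139.9 and 129 CPM (0.99 ± 0.05). Atf5, a transcription factor of the amino acid response, had 258, 288 and 259.6 CPM against 572, 692 and 643 (−1.24 ± 0.06). Of 23 genes of that response 3 were higher and 5 lower, so that 34.8% were called, near the 29.8% of all genes. All 8 serine and amino acid synthesis genes of that response missed the threshold.

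Cholesterol and bile acid genes were mixed. Of 25 genes of cholesterol synthesis 5 were higher and 9 lower under 2,4-BPS (median −0.045). Hmgcs1, the synthase before the rate-limiting step, had 213, 208 and 213 CPM under 2,4-BPS, 418, 369 and 411 under E2 and 133, 130.5 and 129 in controls (−0.92 ± 0.05). Both exposed groups lay above the controls for Hmgcs1. Of the 14 cholesterol genes that differed, controls were below both exposed groups in 11. Msmo1 (−0.53 ± 0.06), Hsd17b7 (−0.50 ± 0.08) and Sqle (−0.45 ± 0.07) were lower too, and Dhcr7 (0.45 ± 0.06) and Nsdhl (0.37 ± 0.06) were higher. Of 10 genes of early steps 0 were higher and 5 lower, and of 10 genes of late steps 4 were higher and 3 lower (median 0.0484). Of 31 bile acid genes 9 were higher and 13 lower. Cyp7a1, which sets the pace of bile acid synthesis, had 376, 369.6 and 353 CPM against 423, 378 and 404 and did not pass the test (−0.13 ± 0.06, adjusted p = 0.0994). Cyp8b1, which makes cholic acid, had 304, 326 and 292 against 578, 638 and 589.9 CPM (−0.97 ± 0.06). Slc10a2, the sodium-dependent bile acid transporter, had 34.8, 33.2 and 34 against 7.63, 7.02 and 6.62 (2.26 ± 0.10).

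Acute phase genes were higher under 2,4-BPS. Of 42 tested, 27 were higher and 5 lower (median 0.322), and all 13 serum amyloid and carrier genes were higher, with a median of 0.775. Lcn2, the siderophore-binding lipocalin, had 228, 247 and 212 CPM under 2,4-BPS and 39.2, 40.4 and 40.3 under E2 (2.52 ± 0.06, adjusted p = 2.23e-27). Controls at 38.4, 34.4 and 38.3 CPM sat with the E2 livers. Saa1 had 159, 179 and 155 CPM against 27.5, 35.5 and 30.7 (2.4 ± 0.07), and Saa2 79, 80.6 and 76.9 against 14.1, 17.1 and 16.7 (2.30 ± 0.08). Saa4, the constitutive member of the family, had 599, 656 and 611 CPM against 232, 220.5 and 212 (1.49 ± 0.05), and Orm2, an orosomucoid, 41.9, 33.9 and 32.5 against 9.4, 9.53 and 10.8 (1.87 ± 0.10). None of these overlapped. Of the 32 acute phase genes that differed, controls were nearer to E2 in 25 and nearer to 2,4-BPS in 7, and they lay below both exposed groups in 21. The 5 genes that went the other way were Agt (−0.41 ± 0.06), Cebpd (−0.62 ± 0.14), Il1rn (−0.61 ± 0.16) and the fibrinogen chains Fga (−0.19 ± 0.06) and Fgg (−0.20 ± 0.06). Neither chain passed without 2,4-BPS library 3 (edgeR's adjusted p = 0.128 and 0.0652), and Fga did not without E2 library 3 (0.0637).

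Saa1 and Saa2 lie next to each other, and reads of such similar genes may be shared between them, so their single values are uncertain. In their 250 bases before the gene start, 238 bases (95.2%) recur in the same order. The letters TTGCNNAA, a form of the C/EBP recognition sequence of many acute phase promoters, occurred on either strand in 15 of 35 windows (42.9%) of 31 acute phase genes and in 9.56% of all 32851 windows. Of the 15 genes with a match, 11 were higher under 2,4-BPS, Fga was lower, and C3, Fgb and Mt2 did not pass the test. In the whole list 27 of 42 genes were higher, and whether the letters go with the direction was not tested. The 2 windows, from RefSeq on GRCm38.p6, are shown to let the shared letters be seen, with the match in capitals.
Saa1, chr7:46742981-46743230, minus strand, match starting 182 bases before the gene start: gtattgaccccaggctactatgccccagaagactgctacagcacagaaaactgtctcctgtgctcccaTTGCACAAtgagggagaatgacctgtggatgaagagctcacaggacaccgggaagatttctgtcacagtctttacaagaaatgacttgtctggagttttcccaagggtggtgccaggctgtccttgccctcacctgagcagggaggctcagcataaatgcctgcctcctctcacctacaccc
Saa2, chr7:46751583-46751832, plus strand, match starting 183 bases before the gene start: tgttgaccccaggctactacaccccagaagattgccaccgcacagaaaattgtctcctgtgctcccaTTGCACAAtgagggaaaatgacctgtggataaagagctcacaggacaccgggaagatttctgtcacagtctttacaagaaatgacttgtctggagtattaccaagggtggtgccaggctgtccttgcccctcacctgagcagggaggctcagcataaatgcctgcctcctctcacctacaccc

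Male offspring gave the opposite sign for most acute phase genes. In males the same comparison was fitted with all 30 libraries, and 3743 of 14131 genes (26.5%) passed, 13.1% higher and 13.4% lower under 2,4-BPS. The 3 libraries labelled male control enter that fit through the shared spread, gene filter and scaling. They had 80.3 to 91.6 CPM of Y-linked genes against 126 to 172 in the 12 other male libraries. Without them 3688 of 14083 genes passed, 1703 higher and 1985 lower under 2,4-BPS. Of 41 acute phase genes tested in males, 2 were higher and 36 lower under 2,4-BPS (median −0.897). Saa2 had 53.5, 52.5 and 49.6 CPM in 2,4-BPS males and 6362, 7029 and 6964 in E2 males (−7.03 ± 0.09). Lcn2 had 26.9, 22.8 and 20.1 CPM against 1018, 1161 and 1188 (−5.59 ± 0.15), and Orm2 15.1, 12.8 and 13.4 against 1004, 1159.9 and 1117 (−6.31 ± 0.13). The E2 males were the high group for all of these, whereas E2 females were the low group. The difference between the sexes passed the test for each, at 9.32 ± 0.12 for Saa2, 8.10 ± 0.20 for Lcn2 and 8.17 ± 0.17 for Orm2 (log2, female minus male).

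**Figure D4:**
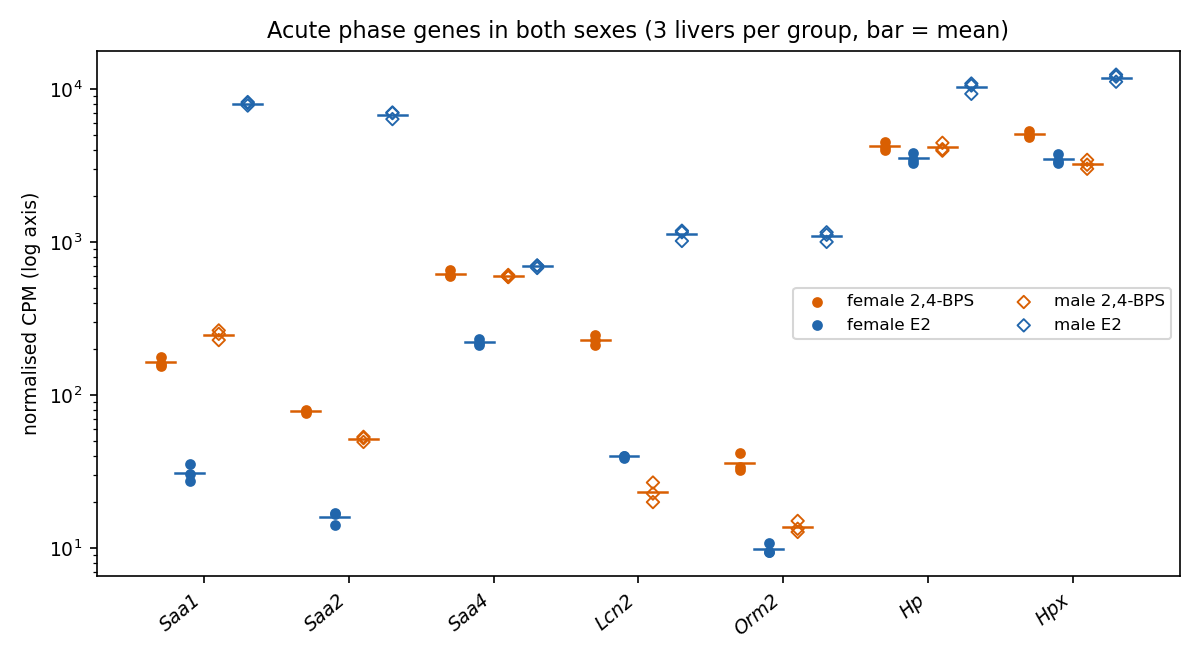
Normalised CPM (log axis) of 7 acute phase genes in single livers of both sexes (orange 2,4-BPS, blue E2; filled circles female, open diamonds male; 3 livers each). Female 2,4-BPS livers lie above female E2 livers in all 7 genes, and for Saa1, Saa2, Lcn2 and Orm2 male E2 livers lie far above all other groups.

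Complement genes were higher under 2,4-BPS as well. Of 18 tested 14 were higher and 0 lower (median 0.437), and of 19 coagulation genes 6 were higher and 2 lower. C8a, a chain of the membrane attack complex, had 355, 369 and 324 CPM against 177, 159 and 167 (1.06 ± 0.06), and C6 had 60.4, 59.5 and 61 against 31.2, 31.1 and 33 (0.92 ± 0.08). F11, coagulation factor XI, had 146, 162 and 141 CPM against 81.9, 77 and 77.2 (0.92 ± 0.06). In males 1 of the 37 complement and coagulation genes was higher and 25 were lower under 2,4-BPS.

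Antigen presentation and macrophage genes were higher under 2,4-BPS. Of 23 antigen presentation genes 17 were higher and 0 lower (median 0.49, and 19 and 1 without E2 library 2), including all 8 class II genes (median 1.16). H2-Ab1, a class II beta chain, had 128, 135 and 133 CPM against 45.3, 54.5 and 47.8, with controls at 58.6, 61.1 and 63.5 (1.42 ± 0.06). Cd74, the invariant chain, had 541, 531 and 554 CPM against 206, 245 and 229 (1.26 ± 0.06), and H2-Eb1 96.6, 91.6 and 88.9 against 20.7, 28.5 and 21.7 (1.97 ± 0.09). In these 17 genes control means were nearer to E2. Of 25 Kupffer cell and macrophage markers 23 were higher and 0 lower (median 0.683). Their summed level was 2560 to 2740 CPM under 2,4-BPS, 1630 to 1700 under E2 and 1890 to 1970 in controls, so the controls lay between the 2 groups. In bulk RNA more cells of a type and more RNA per cell cannot be told apart.

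Marco, a scavenger receptor, had 81.9, 89.3 and 85 CPM against 31.1, 30.3 and 28.3 (1.51 ± 0.07). Adgre1, the gene of F4/80, had 65.9, 60.6 and 67.1 CPM against 27.1, 25.4 and 21.5 (1.39 ± 0.08), and Csf1r, the receptor that macrophages need to survive, 161, 171 and 169 against 94.5, 98.1 and 97.5 (0.79 ± 0.05). The Kupffer cell gene Cd5l had 438, 448 and 466 CPM against 272, 272 and 277 (0.72 ± 0.05). No library of one group reached into the other for these 4 genes. In males 2 of the 25 markers were higher and 10 lower.

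Endothelial, stellate cell, lymphocyte and neutrophil lists had smaller medians than the macrophage list. Of 23 sinusoidal endothelial markers 14 were higher and 0 lower (median 0.277), and 10 were higher without E2 library 2, in which long genes were low. Stab2, a scavenger receptor of these cells, had 125, 132 and 126 CPM against 109, 95.4 and 105 (0.31 ± 0.06). Of 22 stellate cell and matrix markers 13 were higher and 1 lower, and 9 were higher without E2 library 2. Vim, vimentin, had 52.8, 54.1 and 57 CPM against 28.4, 30 and 33.3 (0.84 ± 0.07). Lymphocyte and NK markers (1 higher and 0 lower of 17) and neutrophil markers (2 and 0 of 13, and 1 without E2 library 2 or without 2,4-BPS library 1) had shares called below the background of 29.8%, and Mpo, the neutrophil myeloperoxidase, was at most 2.45 CPM. Hepatocyte markers gave 6 higher and 2 lower of 18. The part of these cell type lists in the other results was not tested.

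Interferon genes differed gene by gene, while the range of their sum overlapped between the groups. Of 48 tested, 21 were higher and 12 lower under 2,4-BPS (median 0.0668), and their summed level was 3140 to 3260 CPM against 3130 to 3250, both above the controls at 2050 to 2080. Of 16 interferon-induced GTPases 6 were higher and 8 lower. Tgtp2 had 69.6, 71.1 and 71.4 CPM under 2,4-BPS against 20.2, 19.3 and 20.8 (1.81 ± 0.07), and Cxcl9, a T cell chemokine, 86.2, 76 and 73.3 against 18.3, 20.9 and 22.3 (1.94 ± 0.09). For Tgtp2 the controls, at 16.9, 17.2 and 19, were with E2. Tgtp1, its close copy, had 93.7, 98.9 and 87.7 against 119, 127 and 114 CPM (−0.37 ± 0.06), with controls far below both at 18, 17.8 and 18.7. Ifi47 (−0.76 ± 0.07), Iigp1 (−0.52 ± 0.05) and Igtp (−0.43 ± 0.06) were lower under 2,4-BPS, and reads of near-identical GTPases may be shared between copies.

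Cell cycle genes were higher under 2,4-BPS. Of 40 tested 24 were higher and 0 lower (median 1.02), among them 15 of 20 genes of G2 and mitosis. Tk1, a thymidine kinase of S phase, had 42.1, 44.8 and 46.6 CPM against 15.4, 15.5 and 13.7, with controls at 30.9, 27.9 and 27.5 (1.58 ± 0.08). Mki67, the proliferation marker Ki-67, had 10.1, 8.23 and 7.94 CPM against 4.22, 2.76 and 3.02 (1.39 ± 0.16), and Top2a, a topoisomerase of dividing cells, 6.44, 5 and 6.41 against 2, 2.22 and 1.7 (1.59 ± 0.20). These 2 genes were low in every library yet did not overlap between the groups. Ccnd1, cyclin D1, had 136, 143 and 135 CPM against 77.3, 77 and 91.6 (0.75 ± 0.06). In males Mki67 was lower under 2,4-BPS (−1.62 ± 0.27).

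Growth restraint and immediate early genes that differed were mostly higher under E2. Of 24 p53 targets and restraint genes 2 were higher and 8 lower under 2,4-BPS, and 14 did not pass. Its 10 inhibitors gave 0 higher and 5 lower. The 14 genes of the p53 axis gave 2 higher and 3 lower (median 0.163), with 35.7% called against 29.8% of all genes. Cdkn1a, the cyclin-dependent kinase inhibitor p21, had 15.4, 13.1 and 12.6 CPM under 2,4-BPS, 43.5, 43.9 and 38.1 under E2 and 2.69, 2.94 and 3.85 in controls (−1.61 ± 0.10), so both exposed groups were above the controls. Gadd45g, a stress sensor, had 12.5, 12.5 and 10.7 CPM against 36.2, 40.1 and 33.9 (−1.62 ± 0.10), and its controls matched the 2,4-BPS livers at 12.9, 10.8 and 13.2. Of 26 immediate early genes 2 were higher and 11 lower, and 13 did not pass. Jun had 12.4, 12.4 and 10.2 CPM against 24.5, 28.1 and 30.8 (−1.26 ± 0.10), Egr1 17.2, 18 and 14.4 against 31, 32 and 36.2 (−1.0 ± 0.09) and Myc 10.3, 10.1 and 10.4 against 23.4, 24.4 and 23.8 (−1.22 ± 0.12). Jun had the same sign in males (−1.13 ± 0.09), whereas Myc was higher under 2,4-BPS there (1.66 ± 0.11).

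Cytosolic ribosomal protein genes were slightly lower under 2,4-BPS. Of 56 tested 42 were lower and 3 higher, with a median of −0.319, and 40 and 4 without E2 library 2. Their summed level was 12200 to 14000 CPM against 14900 to 17900, and controls lay at 14600 to 15400. Rplp0 had 432, 439.9 and 468 CPM against 622, 739.8 and 647 (−0.58 ± 0.06). The 3 exceptions were Rpl26, at 171, 209 and 196 against 40.4, 52.7 and 53.5 CPM (1.97 ± 0.16), Rpl21 (1.22 ± 0.15) and Rpl35a (0.30 ± 0.08). Rpl35a did not pass without 2,4-BPS library 2 (edgeR's adjusted p = 0.0625) or E2 library 1 (0.0559). These genes have many near-identical processed copies, so single values are uncertain. Of 79 oxidative phosphorylation subunits 2 were higher and 6 lower (3 and 3 without E2 library 2, 4 and 3 without 2,4-BPS library 1), below the background, whereas 64 were higher and 0 lower in males.

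Genes of foreign compound metabolism were often higher under 2,4-BPS. Of 48 xenobiotic P450 and FMO genes 22 were higher and 10 lower (median 0.189), and of 41 conjugation and antioxidant genes 20 were higher and 10 lower. Cyp2b10, the classical target of the receptor CAR, had 44.6, 42.4 and 38.2 CPM against 6.44, 8.17 and 6.95, with controls between at 27.1, 26.9 and 30.6 (2.54 ± 0.10). Cyp2a5, coumarin 7-hydroxylase, had 1098, 1155 and 1023 CPM against 302, 312 and 294 (1.85 ± 0.06), and Cyp2a4, its close copy, 1635, 1707 and 1611 against 488, 529.7 and 482 (1.72 ± 0.06). Controls were level with 2,4-BPS for Cyp2a5, at 1117, 1061 and 1090. Cyp1a2, an enzyme of oestrogen 2-hydroxylation, had 412, 450.4 and 409 CPM against 193, 206 and 202 (1.08 ± 0.05). Cyp3a11, the main target of the receptor PXR, went the other way, at 649.8, 669 and 622 against 1490, 1505 and 1457 CPM (−1.20 ± 0.06). Cyp2b9 did not differ detectably (−0.03 ± 0.05, adjusted p = 0.712).

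**Figure D5:**
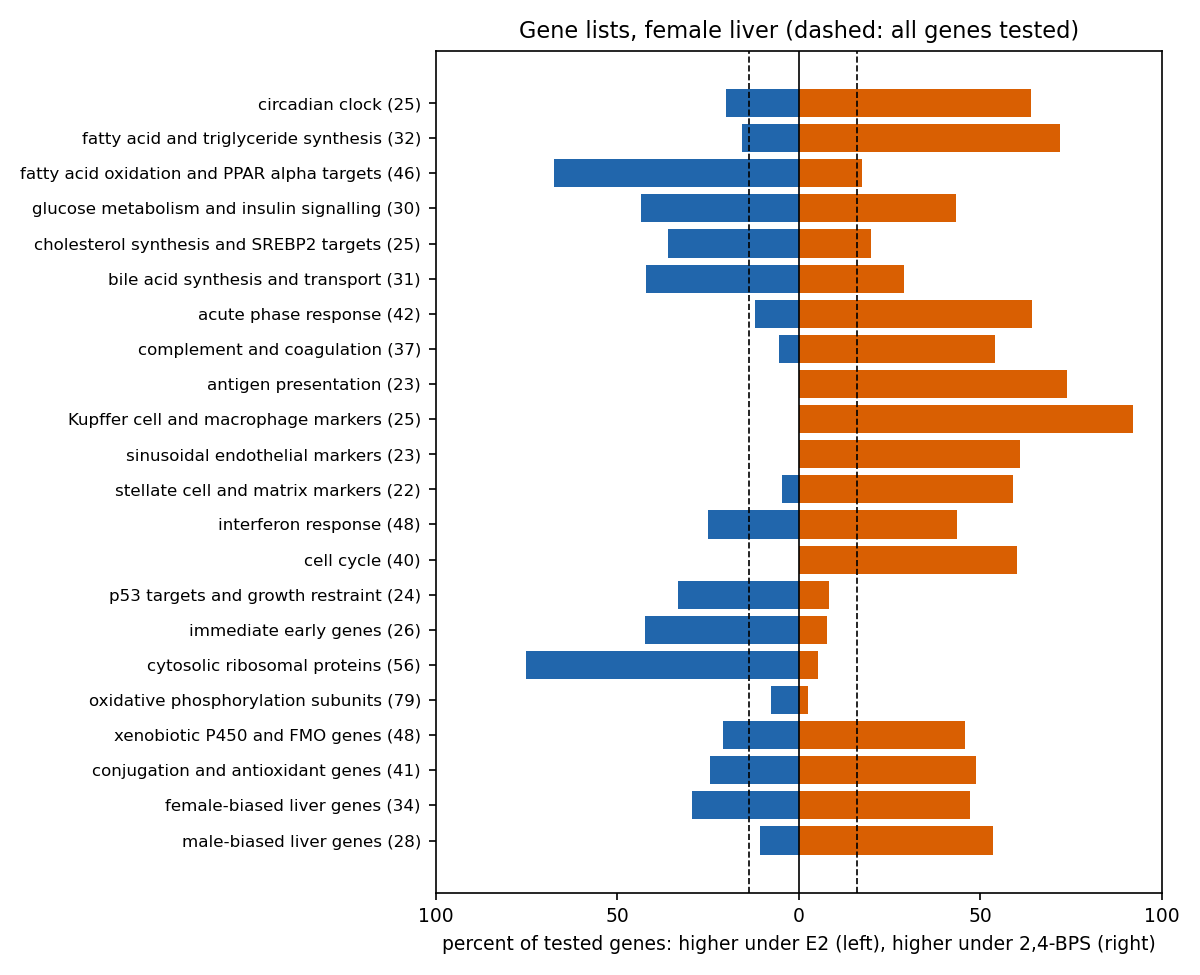
Share of tested genes (percent, x axis) higher under 2,4-BPS (orange, to the right) and higher under E2 (blue, to the left) in 22 gene lists of female liver, with the number tested beside each name. Dashed lines mark the shares over all 13874 genes, 16.1% and 13.7%.

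Esr1, the gene of oestrogen receptor alpha, was higher under 2,4-BPS than under E2. It had 57.5, 60.6 and 52.3 CPM in the 2,4-BPS livers, 19.3, 11.7 and 19.4 in the E2 livers and 24.1, 20.7 and 20 in the controls (1.76 ± 0.13, adjusted p = 6.87e-09). Every E2 liver lay below every control, and the lowest value was that of E2 library 2. Of 12 genes linked to oestrogen in liver 2 were higher and 8 lower (83.3% called, against 29.8% of all genes). Esr1 itself and genes given above, such as Myc, Ccnd1, Gadd45g and Fgf21, are in that list, so it is not a separate count. Also in it, Apoa4, an apolipoprotein, had 938, 983 and 922 CPM against 2391, 2860.4 and 2531 (−1.45 ± 0.06), and Lepr, the leptin receptor, 15.9, 12.8 and 11.6 against 29.6, 26.8 and 30.4 (−1.10 ± 0.11). Sult1e1, the oestrogen sulfotransferase, had 2.65, 2.36 and 3.36 CPM against 0.693, 0.489 and 1.15 (1.83 ± 0.25), with controls above both at 7.11, 8.15 and 6.28. Cyp17a1, a steroid hydroxylase, had 17.5, 18.1 and 18.7 CPM against 86.5, 87.4 and 84.3 (−2.25 ± 0.08). Hsd3b5, a male-typical ketosteroid reductase, had 54.4, 58.1 and 60.1 against 13.9, 12.7 and 11 (2.20 ± 0.08).

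Sex-biased liver genes of both kinds were more often higher than lower under 2,4-BPS. Of 28 male-biased genes 15 were higher and 3 lower under 2,4-BPS (median 0.603), and of 34 female-biased genes 16 were higher and 10 lower (median 0.193). Csad, which makes taurine, was a male-biased gene that was lower, at 43, 47.7 and 47.5 against 189.8, 209 and 213 CPM (−2.14 ± 0.06). Of 20 major urinary protein genes 7 were higher and 0 lower. Mup3 had 3156, 3401 and 3592 CPM against 1756, 1999 and 1767 (0.88 ± 0.06), and Mup15 482, 636 and 504 against 25.6, 42.1 and 42 with controls spread over 347, 546 and 1140.4 (3.89 ± 0.40). The Mup genes are nearly identical copies and their single values are uncertain. In the growth hormone axis Ghr, the receptor, had 509, 525 and 506 CPM against 329.6, 324 and 331 (0.65 ± 0.05), Egfr 305, 315 and 276 against 141, 127 and 149 (1.10 ± 0.06), and Socs2, a feedback inhibitor, 32.9, 35.3 and 36.3 against 55, 58.2 and 49.9 (−0.64 ± 0.08).

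Among single genes the largest differences came from genes near absence in 1 group. Trim12a, of a family of antiviral ring finger proteins, had 4.23, 2.99 and 4.33 CPM under 2,4-BPS and 0 counts in all 3 E2 libraries, which is at least 136-fold higher against a floor of 3 counts over the group. In males the order was reversed, with 0, 0 and 0 CPM under 2,4-BPS and 1.33, 1.12 and 2.74 under E2. Cyp4a12b, a male-typical omega-hydroxylase, had 595 counts against 3, a ratio of 196 with a 95% counting interval of 66.9 to 955. All 3 counts were in E2 library 3, and without it the E2 group had 0 counts and the difference was at least 130-fold. Both genes have close copies, and the controls had 0.869, 1.2 and 1.34 and 12.7, 16.1 and 17.2 CPM. Camk2b, a calmodulin-dependent kinase, had 17.1, 17.3 and 15.7 CPM against 0.166, 0.489 and 0.302 (5.70 ± 0.23), with controls at 8.77, 10.7 and 9.64. Gdpd3, a lysophospholipase D, had 7.99, 7.24 and 10.3 CPM against 0.277, 0.259 and 0.0824, and there the controls were with E2 at 0.136, 0.327 and 0.288 (5.35 ± 0.30). Havcr1, a phosphatidylserine receptor, had 242 counts against 3, a ratio of 79.9 (27 to 390). Without E2 library 3 it was 242 against 1, a ratio of 158 (28.1 to 6280). Ppfia4, LOC118568152 and Crybb3 followed, at 1.23 to 5.46 CPM under 2,4-BPS and at most 0.23 under E2.

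At the other end, Cfhr3, a complement factor H-related gene, had 0.0546, 0.239 and 0.0555 CPM under 2,4-BPS and 4.52, 4.58 and 4.59 under E2 (−5.29 ± 0.32, and −6.30 without 2,4-BPS library 2). Fst, which encodes the activin antagonist follistatin, had 0.3, 0.538 and 0.666 CPM against 3.94, 4.86 and 4.09, with controls at 3.77, 3.57 and 3.59 on the E2 side (−3.09 ± 0.35). Capn3, a calpain, had 0.409, 0.0897 and 0.472 CPM against 4.77, 5.44 and 3.35, and its controls were low like the 2,4-BPS livers (−3.77 ± 0.43). Vldlr, the very low density lipoprotein receptor, had 2.54, 3.2 and 2.53 CPM against 13.8, 12 and 12.9 (−2.23 ± 0.13). Trpv1, Srp54a, Ptger3, Psmc3ip and Gpr12 were also among the 10 largest, at 0.489 to 4.67 CPM under E2 and at most 0.305 under 2,4-BPS. Trpv1, a cation channel, rested on 1 count under 2,4-BPS against 117 under E2, a ratio of 118 with an interval of 20.8 to 4710. Without 2,4-BPS library 3, which held that count, it was at least 26.3-fold higher under E2.

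Skeletal muscle genes were highest in 2,4-BPS library 1. Of 17 markers of other tissues tested 9 were higher under 2,4-BPS, all of them muscle genes, and 4 without 2,4-BPS library 1. Tnnt3, a fast troponin, had 5.18, 0.897 and 0.555 CPM against 0.139, 0.115 and 0.0275 (4.52 ± 0.79), and Tnnc2 2.75, 0.658 and 0.25 against 0.111, 0.0576 and 0 (4.37 ± 1.03). Without 2,4-BPS library 1 the log2 fold changes were 2.91 and 2.94, and without E2 library 1 that of Tnnc2 was 5.25. The summed level of the 17 markers was 61.2, 25.4 and 15.6 CPM in the 3 2,4-BPS libraries and 10.6 to 12.6 in the E2 libraries.

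The control livers lay between the 2 exposed groups in 2917 of the 4141 genes that differed (70.4%). They were above both in 566 and below both in 658. Control means were nearer to 2,4-BPS in 2150 genes and nearer to E2 in 1991 on a log2 scale of CPM + 1. Among the 5 female groups, E2 had the highest or lowest mean in 2649 of these genes (64%), against 41.8% of all genes tested. 2,4-BPS did so in 1996 (48.2%), against 34.9%. BPSIP, which is not in the comparison, did so in 2020 (48.8%), against 56.1%. These genes were chosen for a difference between 2,4-BPS and E2, so nothing is read from the higher shares of those 2 groups. For Thrsp the means of BPS and BPSIP offspring were 1199 and 522 CPM, and for Arntl 12 and 8.05. For Ehhadh they were 1052 and 456, and for Lcn2 79.6 and 178.

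Across 13839 genes in both fits, the female and male differences between 2,4-BPS and E2 had a Pearson correlation of −0.0429 (across genes, which are not independent, no p). Of 1714 genes that differed in both sexes, 812 had the same sign and 902 the opposite sign. The difference between the sexes itself passed the test in 4290 of 14131 genes (30.4%). Ciart did not pass the test in males (0.14 ± 0.16), and the difference between the sexes was 3.72 ± 0.24. Other clock genes did pass in males, where 9 of 25 were higher and 4 lower under 2,4-BPS (median −0.0362). Of 32 genes of fatty acid and triglyceride synthesis 5 were higher and 13 lower in males (median −0.106). Ehhadh was lower under 2,4-BPS in females and slightly higher in males (0.24 ± 0.05, difference −2.26 ± 0.06). Hspb1, a small heat shock protein, had 1.47, 1.41 and 1.39 against 5.58, 4.6 and 7.34 CPM in females (−2.04 ± 0.23) and 111, 120.3 and 120 against 9.55, 8.2 and 9.42 in males (3.69 ± 0.13). The sign was the same in both sexes for H2-Ab1 (1.26 ± 0.09 in males), Cyp2b10 (2.26 ± 0.15), G6pc (−1.26 ± 0.05) and Hmgcs1 (−0.81 ± 0.05), and for these 4 genes the difference between the sexes did not pass the test. Without the libraries labelled male control that of G6pc did (0.21, edgeR's adjusted p = 0.0264).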

How the data were processed

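Per the labels' protocols, RNA was extracted with the MiRneasy kit and libraries were made with a SMARTER mRNA-Seq kit. Per the submitters' processing notes, reads were handled with HISAT2, HTSeq, R 3.2.0 and DESeq2, and no source used here gives their other versions, a genome build, an annotation or a strand setting. The authors deposited raw counts per gene and FPKM values. The counts were tested, and the deposited FPKM served to check them (100% of values of at least 1 lay within 1% of counts scaled by total and length). edgeR 4.0.16 (R 4.3.3) was run with its expression filter, TMM factors and robust quasi-likelihood tests on 15 female libraries, or on all 30 for males and for the sex difference, with Benjamini-Hochberg adjustment over all genes. On simulated data for the female comparison (13874 genes), 64.2% of genes changed 1.5-fold and 79.1% of genes changed 2-fold were recovered. There were 11 false calls. Far fewer genes were changed in that simulation than differed in the data. DESeq2 1.42.0, other scalings, filters and library sets were tried as alternatives. Whether replicates share a batch is not stated, so p-values measure only the spread between these libraries. That spread was small, with a median coefficient of variation of 4.67% under 2,4-BPS and 6.18% under E2. If it stands for the spread between litters was not tested.

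Named genes are the 10 called genes with the largest change in each direction (mean of at least 1 CPM in the higher group, libraries not overlapping, leaving out Gm, Rik, clone and pseudogene names), in each list the 6 with the smallest p and those called against the list's majority, a set panel, genes with 0 counts in 1 group, and the 5 largest sex differences each way. The genes and lists were chosen with earlier results of these data known. Intervals and floors cover counting error only. The libraries labelled male control, low in Y-linked genes, entered only the shared spread, gene filter and scaling of the fit of 30. A few genes that the rule names are not reported here.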

Additional observations from a re-analysis of the deposited data

Results flagged for a closer look

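The difference between 2,4-BPS and E2 was not the same in females and males for 4290 genes by the test of the sex difference itself (edgeR's quasi-likelihood test, adjusted p under 0.05). All values here are log2 differences, female minus male. For acute phase genes the sign was opposite in the 2 sexes, at 9.32 ± 0.12 for Saa2, 8.17 ± 0.17 for Orm2 and 8.10 ± 0.20 for Lcn2. The clock repressor Ciart (3.72 ± 0.24) differed between the compounds in females and did not pass in males. Of 25 clock genes tested in males 9 were higher and 4 lower under 2,4-BPS. Mki67 (3.0 ± 0.35), Myc (−2.89 ± 0.16), Ehhadh (−2.26 ± 0.06) and Hspb1 (−5.74 ± 0.21) passed in both sexes with opposite signs. For Cyp4a12b (8.57 ± 0.36), whose E2 females held 3 counts, both sexes had values that passed, also with opposite signs.

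Fitted differences of genes with 0 or few counts in a group depend on the prior count and set no size. These were Trim12a (18.88 ± 1.18), the extracellular matrix gene Tnr (8.22 ± 1.84), the receptor gene Il11ra2 (−12.03 ± 4.19) and Trpv1 (−5.47 ± 1.30). Ptger3 (−5.93 ± 1.14), with 6 to 229 counts per group, and Capn3 (−4.69 ± 0.76), with 30 to 483, differed in females and did not pass in males. Il11ra2 was at a mean of 1.03 CPM in male 2,4-BPS livers and had 0 counts in male E2 livers, and Tnr was at a mean of 4.55 CPM in male E2 livers and at most 0.163 in the other 3 groups.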

How the results depend on the processing

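Raising the test to a minimum of 2-fold left 197 genes in females, 121 in males and 263 for the sex difference, and 73 of the 143 named genes that differed no longer passed. The other whole-table alternatives in females gave 3516 (only the 6 libraries) to 4326 genes (DESeq2). Leaving out 1 library gave 3487 to 4168 genes in females, 2984 to 3566 in males and 3835 to 4433 for the sex difference, and 2697 of the 4141 female calls (65.1%) held in all 6 of these fits. Of the 143 named genes 135 held in all 6. Cyp2b9, not called, ranged from −0.0903 to 0.0047 with 1 library left out and turned sign without 2,4-BPS library 3. Without the libraries labelled male control, chosen after seeing the data, 3688 genes passed in males and 4233 for the sex difference, and of 21 genes checked 21 kept the male call and 20 that of the sex difference. Counts of genes with controls between the groups were 2865 to 2911 without 1 control library. With the replicate block 4041 genes differed in females, 3696 in males and 4249 for the sex difference, and no named gene changed its call. The deviations of same-numbered libraries correlated at 0.0375, 0.0326 and 0.0101, and those of the other pairs at −0.0445 to 0.0149. 2,4-BPS library 3 correlated best with E2 library 2 (0.0149). Values this small cannot show whether the numbers pair the samples. List counts without E2 library 2 or 2,4-BPS library 1 were chosen after seeing the data. Without E2 library 2, 1 antigen presentation gene was lower. Small differences between genes of low counts are limited by depth.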

Other observations

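In the same female livers other gene groups held genes called both ways. Over all genes 16.1% were higher and 13.7% lower in females, and 13.1% and 13.4% in males. Of 20 steroid-metabolizing enzymes 10 were higher and 6 lower under 2,4-BPS, and of 29 nuclear receptors 8 were higher and 8 lower. Of 34 lipoprotein genes 5 were higher and 8 lower, so that 38.2% were called against 29.8% of all genes. Lipid droplet genes gave 3 higher and 6 lower of 15. Of 18 genes of metallothioneins and iron handling 8 were higher and 2 lower. Heat shock chaperones gave 4 higher and 8 lower of 23 in females, against 21 higher and 1 lower of 23 in males. Endoplasmic reticulum chaperones gave 7 higher and 5 lower of 24 in females, against 18 higher and 1 lower of 24 in males.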
